A study of Mus musculus with 54 samples.

Results

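Fc receptors are the proteins through which macrophages sense antibody, and 6 of their genes were followed here in the macrophages of the mouse brain. The genes were chosen by symbol: Fcgr1, Fcgr3 and Fcgr4 (activating receptors for IgG), Fcer1g (the adaptor of the activating receptors), Fcgr2b (the inhibitory receptor for IgG) and Fcgrt (the neonatal Fc receptor). They are 6 of the 33280 genes in the deposited count tables, and all 6 passed the filter on low counts in each of the 26 comparisons made.

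The activating receptors bind IgG on the cell surface and signal through an ITAM, a tyrosine motif that is carried by the adaptor FcRγ (Fcer1g), to the kinase Syk, which leads to phagocytosis, an oxidative burst and cytokine release. FcγRIIB (Fcgr2b) carries an ITIM in its own tail, recruits the phosphatase SHIP1 and dampens the signal when both kinds of receptor are engaged by the same immune complex, so that the balance of activating to inhibitory receptors sets the threshold of the cell. FcRn (Fcgrt) pairs with β2-microglobulin, works in endosomes, and protects IgG and albumin from degradation.

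Bulk RNA-seq of cells sorted from mouse brains without the choroid plexuses gave 54 libraries, 24 of microglia (MG) and 30 of subdural CNS-associated macrophages (sdCAMs, the leptomeningeal and perivascular macrophages), in 18 groups of 3 mice from 24 mice. Wild-type (WT) mice and Ccr2-/- mice, which lack the chemokine receptor that monocytes use to enter tissue, were untreated and injected with PBS, or received vehicle (CTL) or BLZ945, a CSF1R inhibitor that depletes macrophages, and were injected with LPS, the endotoxin of Gram-negative bacteria, 8 weeks after the end of that treatment. In the reporter line Ccr2CreERT2/CreERT2:R26tdT/tdT (Ccr2Cre below), in which CreERT2 is driven by Ccr2, all mice received BLZ945 and then tamoxifen, were injected with PBS or LPS, and their sdCAMs were sorted into tdT+ cells (marked through Ccr2) and tdT- cells. All cells were harvested 12 hours after injection. The untreated mice had no vehicle gavage, so that vehicle and LPS change together between untreated and CTL+LPS, and the age of the mice is not given in the labels. The labels put WT and Ccr2-/- mice in batch 1 and the reporter mice in batch 2, so that reporter line, batch and BLZ945 with tamoxifen cannot be told apart from each other, and levels are compared within a genotype or within batch 1. WT and Ccr2-/- libraries lie in separate count tables, and a difference in processing between them cannot be told apart from genotype.

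Library totals ranged from 1705930 to 11330781 counts, with the lowest in WT sdCAMs (1705930 to 7699790). In the WT sdCAMs, 6 of the 9 libraries carry the mark IEG_correction, which the labels do not explain: all 3 of CTL+LPS, 1 of BLZ945+LPS and 2 untreated. WT sdCAMs after CTL+LPS gave 25.1% to 31.0% of their counts to genes with short transcripts (under 1000 bases, Fcer1g left out), and tdT- sdCAMs after LPS gave 19.4% to 21.9%, against 4.56% to 9.26% in all other sdCAM libraries except untreated WT (4.95% to 19.9%) and 1 WT library of BLZ945+LPS (34.3%). Microglial markers summed to 25942 to 41335 CPM (counts per 1000000, scaled by TMM over all libraries) in untreated WT and Ccr2-/- MG and sdCAM markers to 22.6 CPM at most in any MG library, so that the MG label held. The untreated sdCAMs of WT and Ccr2-/- mice carried 6982 to 14374 CPM of sdCAM markers, with 3306 to 10004 CPM of microglial markers beside them. The neutrophil marker Ly6g was at 0 in all 18 groups, while S100a8, another one, was at 359 to 3251 CPM in WT sdCAMs after CTL+LPS. Ccr2 was at 17.1 to 51.1 CPM in untreated WT sdCAMs and at 2.33 to 5.21 CPM in untreated Ccr2-/- sdCAMs; which part of the gene is deleted is not given in the sources used here. The index numbers in 2 column names of the reporter LPS sdCAMs (tdT- of mouse 1, tdT+ of mouse 7) do not match the labels, and where exchanging the 2 columns ended a call, this is said beside it. The sort used an antibody block of CD16/32, the proteins of Fcgr3 and Fcgr2b, and its part in the RNA levels was not tested.

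Where the genes start is shown for 5 of them. The adaptor Fcer1g is left out, though its RNA moved with LPS as well. Fcgr2b, Fcgr3, Fcgr4 and Fcer1g lie together on chromosome 1, Fcgr1 on chromosome 3 and Fcgrt on chromosome 7. Each line holds the 250 bases before the start of transcription from RefSeq (mouse build GRCm38.p6), 5′ to 3′ on the strand of the gene, with motif matches in capitals. They are Fcgr4 at chr1:171018676-171018925 on the plus strand and, on the minus strand, Fcgr1 at chr3:96293970-96294219, Fcgr3 at chr1:171059404-171059653 (the first of its 2 listed starts), Fcgr2b at chr1:170976072-170976321 and Fcgrt at chr7:45103823-45104072.
Fcgr4: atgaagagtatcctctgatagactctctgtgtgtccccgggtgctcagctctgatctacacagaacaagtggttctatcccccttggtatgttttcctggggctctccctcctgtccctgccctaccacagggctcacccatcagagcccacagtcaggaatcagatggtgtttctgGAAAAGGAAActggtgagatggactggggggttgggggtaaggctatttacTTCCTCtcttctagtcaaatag
Fcgr1: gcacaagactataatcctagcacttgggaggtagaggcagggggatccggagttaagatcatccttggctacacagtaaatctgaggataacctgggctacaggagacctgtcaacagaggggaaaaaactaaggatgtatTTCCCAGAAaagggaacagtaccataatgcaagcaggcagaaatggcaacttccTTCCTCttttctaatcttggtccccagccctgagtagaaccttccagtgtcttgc
Fcgr3: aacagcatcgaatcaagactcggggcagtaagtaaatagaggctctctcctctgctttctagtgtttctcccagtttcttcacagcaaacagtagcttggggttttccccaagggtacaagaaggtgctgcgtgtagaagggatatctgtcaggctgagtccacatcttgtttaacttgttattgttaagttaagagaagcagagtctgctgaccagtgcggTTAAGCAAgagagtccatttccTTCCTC
Fcgr2b: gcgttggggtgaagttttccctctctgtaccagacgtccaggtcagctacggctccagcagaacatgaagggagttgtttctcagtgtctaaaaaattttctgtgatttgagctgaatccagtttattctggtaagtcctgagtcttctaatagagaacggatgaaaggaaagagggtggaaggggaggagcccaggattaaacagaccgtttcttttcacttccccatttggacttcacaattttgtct
Fcgrt: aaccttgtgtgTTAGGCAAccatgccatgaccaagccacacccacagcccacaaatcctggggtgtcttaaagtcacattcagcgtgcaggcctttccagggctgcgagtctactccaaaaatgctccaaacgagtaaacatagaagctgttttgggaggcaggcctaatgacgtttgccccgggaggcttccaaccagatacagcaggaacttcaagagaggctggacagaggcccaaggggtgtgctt

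Letters of 4 motifs were searched on both strands. The interferon-stimulated response element (GAAA, any 2 bases, GAAA) occurred in the Fcgr4 window alone of the 6 genes, 73 to 64 bases before the start, and in 2.98% of 32851 mouse promoters of this length. The gamma-activated site (TTCNNNGAA) occurred only in the Fcgr1 window, 109 to 101 bases before the start (7.02% of promoters). The PU.1 letters (GAGGAA) occurred in Fcgr4, Fcgr1 and Fcgr3 (23.3% of promoters), and the C/EBP letters (TTGCNNAA) in Fcgr3 and Fcgrt (9.56%). None of the 4 was found in the windows of Fcgr2b and Fcer1g. The matches did not overlap each other. They describe the letters and were not tested as binding sites.

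Per length of the longest coding transcript, Fcer1g had the highest level of the 6 genes in all 18 groups and Fcgr3 the second. In untreated WT MG, Fcer1g was at 1189 CPM per kilobase, Fcgr3 at 955, Fcgr1 at 91.7, Fcgr2b at 85.7, Fcgrt at 56.3 and Fcgr4 at 10.1. Fcgr4 was the lowest of the 6 in all 7 groups without LPS, and Fcgrt was the lowest in all 11 groups with LPS. With exon union lengths the first and the last places were held by the same genes, and Fcgr3 was second in 17 of 18 groups.

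LPS raised Fcgr4, which encodes the activating receptor FcγRIV, in every population of MG and sdCAMs. In WT MG its levels were 16.8, 7.53 and 13.7 CPM in the untreated mice and 346, 146 and 179 CPM after CTL+LPS. In Ccr2-/- MG they were 24.6, 13.2 and 20.1 CPM untreated and 463, 428 and 457 CPM after CTL+LPS. Every LPS library lay above every untreated one in both genotypes, and the difference was 17.7-fold in WT MG (95% interval 10.4 to 30.2, adjusted p = 8.77e-06 by edgeR's quasi-likelihood test, as are all adjusted p below) and 23.7-fold in Ccr2-/- MG (15.99 to 35.2, adjusted p = 4.78e-08).

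In TMM-scaled CPM, Fcgr4 went from a similar floor to a higher level in the sdCAMs of WT and Ccr2-/- mice than in their MG. WT sdCAMs held 25.7, 6.5 and 48.2 CPM untreated and 1038, 992 and 1057 CPM after CTL+LPS, a 43.2-fold change (12.8 to 146, adjusted p = 0.00565). Ccr2-/- sdCAMs held 24.0, 20.3 and 25.7 CPM untreated and 1097, 1058 and 1245 CPM after CTL+LPS, a 48.5-fold change (34.1 to 69.1, adjusted p = 1.08e-08). The groups were apart in both genotypes, with the LPS libraries within a narrow range of each other on this scale. Without the TMM scaling WT sdCAMs held 6.41 to 57.02 CPM untreated and 357 to 522 CPM after CTL+LPS, still apart. These unscaled LPS levels overlapped those of WT MG (196 to 451 CPM), so that the higher level in WT sdCAMs depended on the scaling. In Ccr2-/- cells after CTL+LPS the unscaled levels did not overlap (1011 to 1194 CPM in sdCAMs, 501 to 533 CPM in MG). In the reporter mice, tdT+ sdCAMs rose from 90.6, 52.7 and 62.7 to 684, 364 and 875 CPM (9.34-fold, 5.23 to 16.7, adjusted p = 0.000128) and tdT- sdCAMs from 58.2, 30.8 and 36.6 to 715, 849 and 692 CPM (17.9-fold, adjusted p = 6.05e-06). Reporter MG rose from 36.3, 29.8 and 28.1 to 562, 315 and 264 CPM (11.8-fold, 5.91 to 23.8, adjusted p = 0.0176), a call that was lost in 5 of 6 fits without 1 library (adjusted p up to 0.102). Over all libraries, the 33 with LPS lay between 146 and 1901 CPM (median 595) and the 21 without LPS between 6.5 and 90.6 CPM (median 25.7), so that no library of one kind reached the other.

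**Figure D1:**
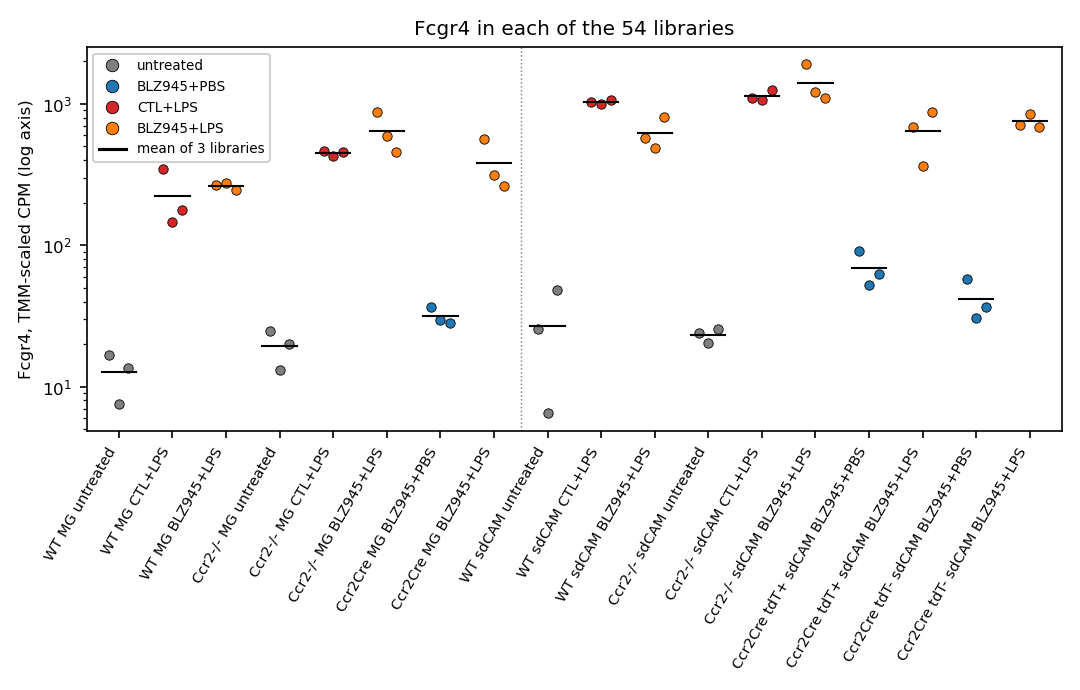
Fcgr4 in each of the 54 libraries, in TMM-scaled CPM on a log axis, with 1 point per library, a bar at the mean of 3 libraries, MG left and sdCAMs right of the dotted line. The LPS libraries (red and orange) lie between 146 and 1901 CPM, all above the untreated and PBS libraries (grey and blue), which lie at or under 90.6 CPM.

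Fcgr4 is abundant in neutrophils and in some monocytes. The study names the reporter sdCAMs of these libraries as CD206+ cells, but the full gate of the sort is not given in the sources used here. For another experiment the study describes a gate that left out Ly6C+ and Ly6G+ cells. Summed neutrophil markers went from 109 to 232 CPM in untreated WT sdCAMs to 433 to 3377 CPM after CTL+LPS, of which S100a8 made 359 to 3251 CPM, and from 105 to 132 CPM to 331 to 383 CPM in Ccr2-/- sdCAMs. After LPS they reached 222 to 237 CPM in tdT+ sdCAMs (111 to 135 CPM after PBS) and 708 to 2489 CPM in tdT- sdCAMs (123 to 191 CPM). Summed monocyte markers went from 0 to 0.12 CPM in untreated Ccr2-/- sdCAMs to 101 to 191 CPM after CTL+LPS, and from 0 to 14.6 CPM to 23.8 to 101 CPM in WT sdCAMs. In tdT+ sdCAMs they went from 0.23 to 4.75 CPM to 20.7 to 121 CPM, in tdT- sdCAMs they overlapped (1.18 to 102 CPM after PBS, 21.2 to 71.4 CPM after LPS), and all MG libraries held 12.3 CPM or less. Ly6g was at 0 everywhere. Of the monocyte markers, Ly6c2, Plac8, Chil3 and Vcan were at 0 in untreated Ccr2-/- sdCAMs and Chil3 alone after CTL+LPS. After BLZ945+LPS none of them was at 0 in these cells. The part of other cells in the Fcgr4 result was not tested. In bulk samples a change in the number of cells of a kind and a change in RNA per cell cannot be told apart.

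The high-affinity receptor FcγRI (Fcgr1) changed less. It held 379, 381 and 374 CPM in untreated Ccr2-/- MG and 723, 676 and 699.9 CPM after CTL+LPS, and rose 1.88-fold there (adjusted p = 4.27e-05). In Ccr2-/- sdCAMs it held 390.1, 566 and 427 CPM untreated and 727, 697 and 889.8 CPM after CTL+LPS, a 1.67-fold rise (adjusted p = 0.0144) that was lost in 3 of 6 fits without 1 library and with the share of short transcripts as a covariate (adjusted p = 0.219). In both populations the LPS libraries lay above all untreated ones. In WT MG the untreated libraries held 236, 247 and 229 CPM and the LPS libraries 411, 175 and 317 CPM, so that the groups overlapped through mouse 4, and the log2 difference was 0.35 ± 0.24 (SE, adjusted p = 0.308). Without that library it was 0.62 (adjusted p = 0.00795). WT sdCAMs held 359 to 502 CPM untreated and 536 to 731 CPM after CTL+LPS (log2 difference 0.80 ± 0.50, adjusted p = 0.354). Without the TMM scaling the order was the other way, with 354 to 450 CPM untreated and 184 to 343 CPM after CTL+LPS. In the reporter cells the log2 differences were −0.01 (MG), −0.29 (tdT+ sdCAMs) and −0.25 (tdT- sdCAMs), none past the threshold.

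Fcgr3, the gene of the low-affinity activating receptor FcγRIII, rose in MG of WT and Ccr2-/- mice and fell in the tdT- sdCAMs of the reporter mice. In WT MG it held 1302, 1295 and 1260.0 CPM untreated and 1832, 2347 and 1980.0 CPM after CTL+LPS, a 1.60-fold rise (1.31 to 1.96, adjusted p = 0.00261). In Ccr2-/- MG it went from 1906, 2111 and 2122 CPM to 3653, 3707 and 3195 CPM, a 1.74-fold rise (adjusted p = 0.000572), and the groups were apart in both genotypes. Ccr2-/- sdCAMs held 1863, 2190 and 2147 CPM untreated and 2059, 1846 and 2224 CPM after CTL+LPS, which overlapped, with a log2 difference of −0.02 (95% interval −0.32 to 0.29, adjusted p = 0.944). WT sdCAMs held 980 to 1386 CPM untreated and 1480 to 1998 CPM after LPS (log2 difference 0.66 ± 0.59, adjusted p = 0.523). Without the TMM scaling the order was the other way, with 1160 to 1194 CPM untreated and 509 to 842 CPM after CTL+LPS.

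In tdT- sdCAMs of the reporter mice Fcgr3 fell from 2099, 2541 and 2241 CPM after PBS to 1013, 1055 and 871 CPM after LPS (0.426-fold, adjusted p = 0.0182), and all LPS libraries lay below all PBS libraries. The call was lost with the 2 doubtful columns exchanged (adjusted p = 0.0659). In tdT+ sdCAMs it went from 2049, 2186 and 1970 CPM to 707, 1885 and 844 CPM, with a log2 difference of −0.85 ± 0.35 (adjusted p = 0.127). The library of mouse 5, at 1885 CPM, stood apart there, and it held 9668 CPM of microglial markers against 622 and 707 CPM in the other two. Summed sdCAM markers of the tdT+ LPS libraries were 516, 3102 and 3909 CPM, from lowest to highest. Without the library of mouse 5 the log2 difference was −1.43 (adjusted p = 0.00263). Reporter MG held 2015 to 2176 CPM after PBS and 2248 to 3209 CPM after LPS (log2 difference 0.26 ± 0.31, adjusted p = 0.829). Fcgr3 and Fcgr2b share some sequence, 166 windows of 50 bases or 9.58% of the windows of Fcgr3, so that a read of this length from such a window fits both genes.

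Fcer1g rose modestly in MG, and by widely different amounts in sdCAMs. In WT MG it held 926, 770.4 and 741 CPM untreated and 1292, 1019 and 1097 CPM after CTL+LPS, a 1.40-fold rise (adjusted p = 0.0187) with no overlap. In Ccr2-/- MG it went from 1450.1, 1274 and 1444 CPM to 2129, 1886 and 1830 CPM, a 1.42-fold rise (adjusted p = 0.0298). Leaving out single libraries ended the call in WT MG in 2 of 6 fits (adjusted p = 0.0749 and 0.0882 without the second or the third untreated library) and in Ccr2-/- MG in all 6 (adjusted p 0.0515 to 0.110). In Ccr2-/- sdCAMs it rose from 2455, 2575 and 2454 CPM to 7017, 6618 and 6076 CPM, 2.63-fold (adjusted p = 8.22e-06), and this call held in all 6 such fits.

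The highest Fcer1g levels of all lay in WT sdCAMs, in libraries that also gave the most counts to short transcripts. The untreated libraries held 5209, 2213 and 967 CPM and the CTL+LPS libraries 85963, 82675 and 56551 CPM. Although the groups were far apart, the log2 difference of 4.85 ± 1.91 had an adjusted p of 0.142, since the libraries of BLZ945+LPS, which share the estimate of the spread, held 3149, 2043 and 100822 CPM. The short-transcript share was 25.1%, 31.0% and 28.9% in the CTL+LPS libraries and 7.06%, 5.27% and 34.3% in those of BLZ945+LPS, in the same order. Fcer1g itself has a longest transcript of 683 bases, and its part in this pattern was not tested. With the IEG_correction mark as a covariate the difference was 3.67 (adjusted p = 0.0398).

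Relative to Tyrobp, which encodes DAP12, another short ITAM adaptor of myeloid cells, the WT sdCAM libraries were closer together. The ratio of Fcer1g to Tyrobp counts was 0.575, 0.579 and 1.31 untreated, 5.09, 3.25 and 4.14 after CTL+LPS, and 3.73, 4.40 and 4.24 after BLZ945+LPS. In Ccr2-/- sdCAMs it was 1.44 to 1.68 untreated and 4.82 to 6.84 after LPS with CTL or BLZ945. All LPS libraries lay above all untreated ones on this ratio in both genotypes. In the reporter mice it was 1.28 to 1.395 after PBS in tdT+ sdCAMs and 1.29 to 1.37 in tdT- sdCAMs, and rose to 4.34, 2.56 and 4.82 in tdT+ and to 2.21, 7.64 and 2.54 in tdT- sdCAMs after LPS, values that overlapped between the sorts. A higher ratio can come from more Fcer1g or from less Tyrobp. In tdT+ sdCAMs Fcer1g itself did not rise (2480 to 3174 CPM after PBS, 1877 to 1975 CPM after LPS). The ratio there is thus no sign of more Fcer1g, and the change of Tyrobp by itself was not tested.

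**Figure D2:**
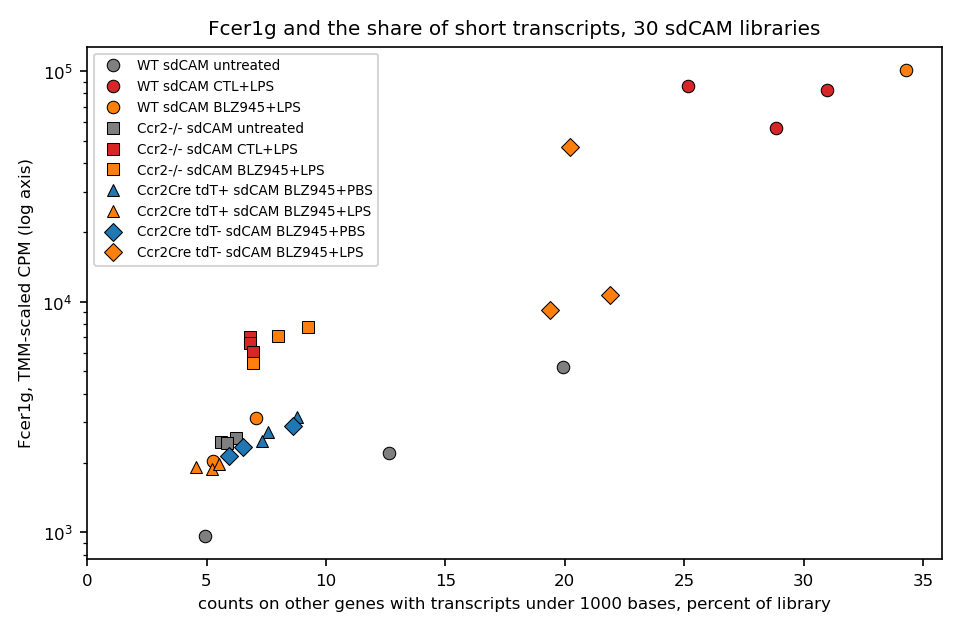
Fcer1g in the 30 sdCAM libraries (TMM-scaled CPM, log axis) against the share of counts on other genes with transcripts under 1000 bases (percent), with 1 point per library, coloured by treatment and shaped by genotype and sort. The points at 46948 CPM and above all lie at 20.2% or more on the horizontal axis, while the Ccr2-/- LPS libraries (squares) lie at 5442 to 7803 CPM with shares of 9.26% or less.

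In TMM-scaled CPM the Fcer1g levels of tdT- and tdT+ sdCAMs lay apart after LPS, unlike the ratio to Tyrobp. The tdT- libraries went from 2896, 2356 and 2139 CPM after PBS to 10656, 46948 and 9237 CPM after LPS, a 9.02-fold rise (4.05 to 20.1, adjusted p = 0.000492), whereas the tdT+ libraries held 3174, 2718 and 2480 CPM and then 1877, 1975 and 1922 CPM (log2 difference −0.53 ± 0.50, adjusted p = 0.534). Between tdT+ and tdT- cells after LPS the fold was 0.0863 (adjusted p = 0.00054). All 3 tdT- LPS libraries held 19.4% to 21.9% of short transcripts and all 3 tdT+ ones 4.56% to 5.51%. With this share as a covariate the log2 difference between tdT+ and tdT- cells was 2.05 in place of −3.54 and that of tdT- cells with LPS −1.76, with no gene of any kind past the threshold in either fit. With the 2 doubtful columns exchanged, the difference between tdT+ and tdT- cells was −2.01 (adjusted p = 0.764) and the LPS difference of the tdT- cells 2.97 (adjusted p = 0.0594).

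Fcgr2b, the one inhibitory receptor among the 6, rose with LPS about as much in MG as in sdCAMs. In WT MG it went from 335, 308 and 269.6 CPM to 782, 531 and 631 CPM (2.14-fold, 1.69 to 2.71, adjusted p = 0.000366). In Ccr2-/- MG it went from 472, 443 and 429 CPM to 1127, 1019 and 1098 CPM (2.45-fold, 2.03 to 2.95, adjusted p = 3.76e-06), and in Ccr2-/- sdCAMs from 1897, 1534 and 1623 CPM to 3385, 3605 and 3691 CPM (2.11-fold, adjusted p = 9.92e-05). In these 3 populations no LPS library overlapped an untreated one, and all 6 fits without 1 library called the gene.

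In WT sdCAMs Fcgr2b held 777, 766 and 778 CPM untreated and 1858, 1608 and 1717 CPM after CTL+LPS. On this scale the groups did not overlap, but the log2 difference of 1.29 ± 0.57 (0.05 to 2.54) missed the threshold (adjusted p = 0.184). Without the TMM scaling these libraries held 654, 756 and 921 CPM untreated and 639, 578 and 848 CPM after CTL+LPS, which overlapped. Reporter cells gave log2 differences of 0.40 ± 0.28 in MG (adjusted p = 0.629), 0.65 ± 0.32 in tdT+ sdCAMs (adjusted p = 0.201) and 0.25 ± 0.32 in tdT- sdCAMs (adjusted p = 0.598). In the tdT+ cells the library of mouse 5 was again the lowest, at 969 CPM against 2160 and 1927 CPM, and without it the difference was 0.91 (adjusted p = 0.0259).

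Fcgrt fell steeply with LPS in sdCAMs, and not detectably in MG. Ccr2-/- sdCAMs held 1300.3, 1227 and 1339 CPM untreated and 131, 125 and 156 CPM after CTL+LPS (0.106-fold, 0.0737 to 0.153, adjusted p = 9.96e-07). In tdT+ sdCAMs the levels were 732, 819 and 653 CPM after PBS and 116, 74.6 and 128 CPM after LPS (0.144-fold, adjusted p = 0.00016), and in tdT- sdCAMs 887, 1342 and 963 CPM and then 41.5, 71.7 and 86.3 CPM (0.0622-fold, adjusted p = 4.45e-06). The groups lay far from each other in all 3 populations.

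The exception was the WT sdCAMs, where Fcgrt held 444, 399.7 and 474 CPM untreated and 121, 572 and 114 CPM after CTL+LPS. The library of mouse 4 lay above every untreated one, and the log2 difference was −0.59 ± 0.69 (adjusted p = 0.641), or −1.75 (adjusted p = 0.166) without it. Without the TMM scaling this library held 206 CPM, below the untreated ones at 373 to 561 CPM. After BLZ945+LPS the WT sdCAMs held 132, 69.01 and 219 CPM. In MG the untreated levels of 93.9 to 157 CPM were low in both genotypes, and the log2 differences with LPS were −0.22 ± 0.23 in WT (adjusted p = 0.507; −0.54, adjusted p = 0.0261, without mouse 4), −0.28 ± 0.17 in Ccr2-/- (adjusted p = 0.228) and −0.89 ± 0.48 in reporter cells (adjusted p = 0.489).

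**Figure D3:**
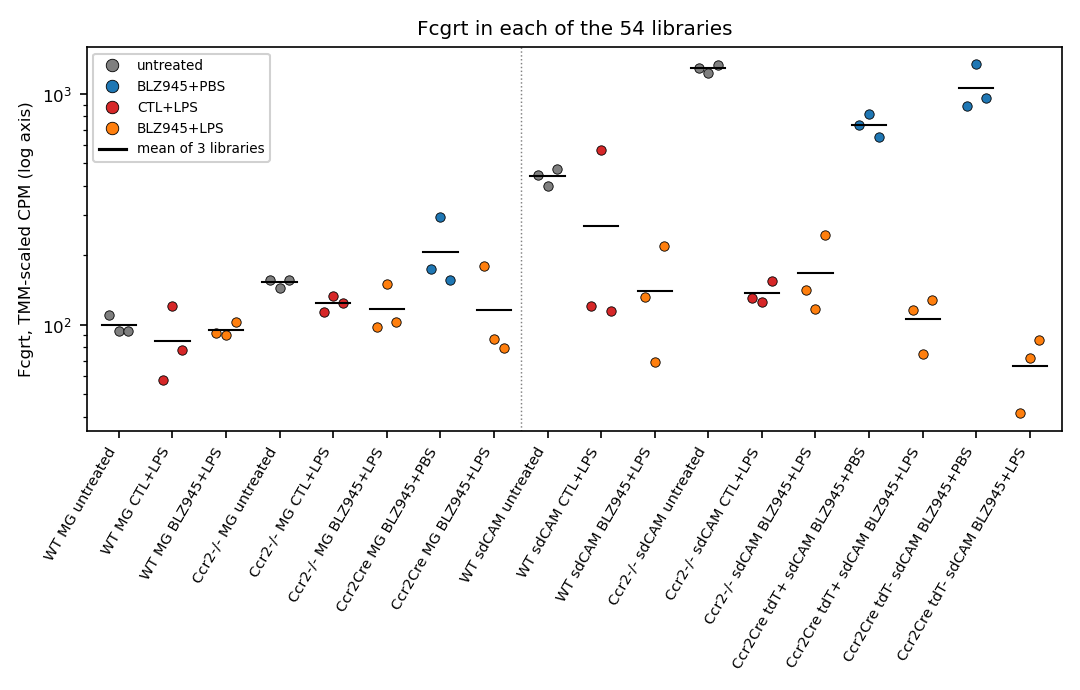
Fcgrt in each of the 54 libraries, in TMM-scaled CPM on a log axis, with 1 point per library and a bar at the mean of 3 libraries, MG left and sdCAMs right of the dotted line. The sdCAM libraries without LPS lie at 399.7 to 1342 CPM and those with LPS at 41.5 to 572 CPM, where the WT library at 572 CPM is the only one above 244 CPM.

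Counted over the 6 genes, LPS changed 4 in WT MG (Fcgr2b, Fcgr3, Fcgr4 and Fcer1g) and 5 in Ccr2-/- MG (these and Fcgr1), all higher, where 30.9% and 34.9% of all genes tested were called (16.7% and 19.4% of genes higher). In Ccr2-/- sdCAMs 5 changed, 4 higher (Fcgr1, Fcgr2b, Fcgr4, Fcer1g) and 1 lower (Fcgrt), against 28.8% of all genes (15.8% higher, 13.1% lower). In WT sdCAMs only Fcgr4 was called, as higher, against 6.32% of all genes (3.7% higher). The reporter cells had 1 member called in MG, as higher (1.08% of genes, 0.662% higher). In tdT+ sdCAMs 1 was higher and 1 lower (13.6% of genes, 7.63% higher and 6% lower), and in tdT- sdCAMs 2 were higher and 2 lower (27.1%, 14.7% higher and 12.4% lower). With tdT+ and tdT- counts summed per mouse, 4 were called (27% of genes, 15.2% higher and 11.8% lower), with Fcgr4 and Fcer1g higher, and Fcgr3 and Fcgrt lower, and the exchange of the 2 doubtful columns ended the calls of Fcgr3 (adjusted p = 0.0929) and Fcer1g (adjusted p = 0.0968). The tdT- calls were all lost with the share of short transcripts as a covariate, a fit in which no gene was called.

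**Figure D4:**
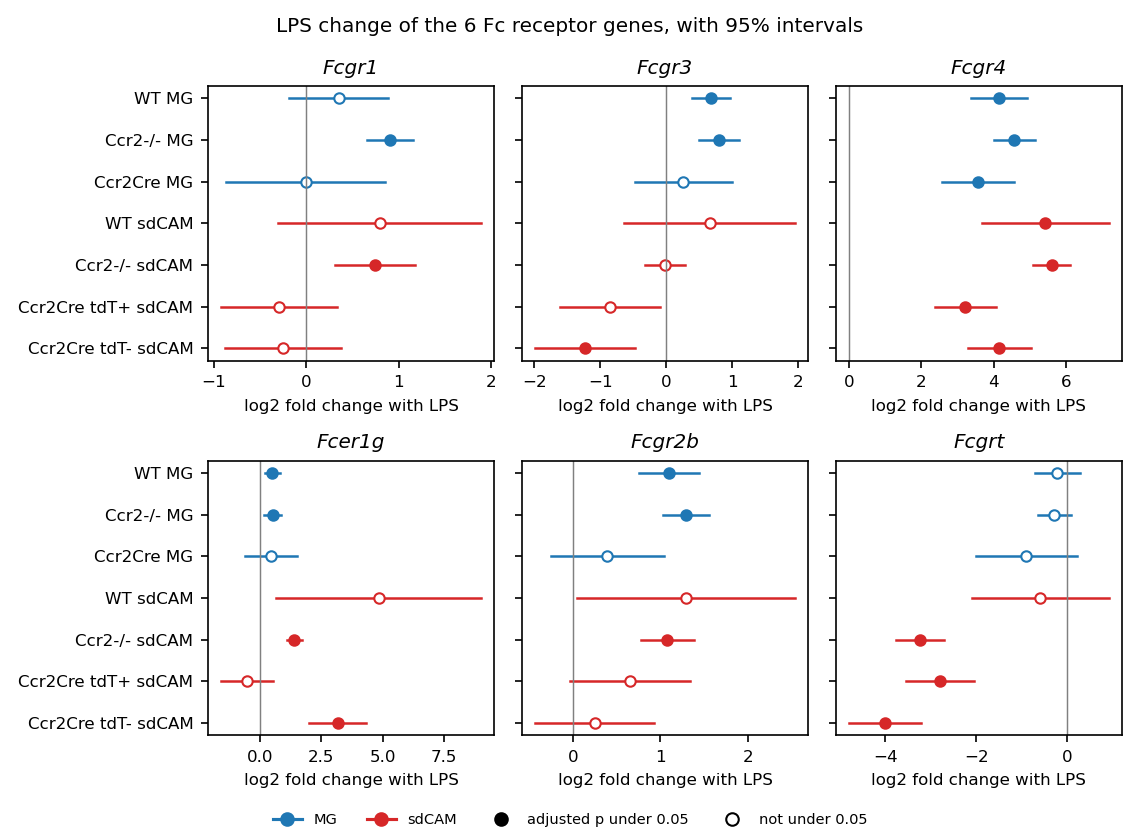
Log2 fold change with LPS of each of the 6 genes (panels) in 7 populations, MG in blue and sdCAMs in red, with 95% intervals as lines. Filled points have an adjusted p under 0.05: Fcgr4 is filled and to the right of 0 in all 7, and Fcgrt is filled, to the left of 0, in 3 of the 4 sdCAM populations.

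The balance of activating to inhibitory receptors was lower in sdCAMs than in MG in all libraries. The summed counts of Fcgr1, Fcgr3 and Fcgr4 were 4.65 to 5.87 times (median 5.04) those of Fcgr2b in the 9 MG libraries without LPS and 1.201 to 2.64 times (median 2.00) in the 12 sdCAM libraries without LPS. After LPS the ratio was 3.04 to 6.76 (median 4.29) in 15 MG libraries and 0.884 to 2.66 (median 1.35) in 18 sdCAM libraries. The ratios of MG and sdCAMs did not overlap, whereas those with and without LPS did when the populations of a cell type were pooled. Within a population, CTL+LPS against untreated gave no overlap in Ccr2-/- MG (3.96 to 4.72 after 4.89 to 5.87) and in Ccr2-/- sdCAMs (0.999 to 1.18 after 1.201 to 1.81), nor did LPS against PBS in tdT- sdCAMs (1.12 to 1.46 after 1.94 to 2.06), each lower with LPS. The ratios overlapped in WT MG, WT sdCAMs, reporter MG and tdT+ sdCAMs. In tdT+ sdCAMs they were 0.884 to 2.66 after LPS and 2.39 to 2.64 after PBS. The overlap there came from the LPS library of mouse 5, which carried microglial markers. The other tdT+ LPS libraries lay below all tdT+ PBS libraries. The ratios are of counts and not per length, and hold for a comparison of libraries and not of the genes.

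Within the activating receptors the make-up shifted towards Fcgr4. Its share of the activating counts was 0.486% to 1.53% in MG without LPS and 5.46% to 14.7% with LPS, and in sdCAMs 0.413% to 3.42% without and 14.2% to 40.4% with LPS. The ratio of Fcgr3 to Fcgr2b had a lower median with LPS in both cell types, though the ranges overlapped. In MG it was 3.89 to 4.95 (median 4.21) without LPS and 2.18 to 5.02 (median 3.24) with LPS, and in sdCAMs 0.982 to 1.96 (median 1.63) and 0.327 to 1.94 (median 0.651). The tdT+ LPS library of mouse 5, which carried the microglial markers, gave the highest of the LPS values in sdCAMs. Fcgr4 relative to Fcgr2b rose in both cell types, from 0.0245 to 0.0753 to 0.274 to 0.879 in MG and from 0.00848 to 0.0857 to 0.293 to 0.617 in sdCAMs, with no overlap.

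**Figure D5:**
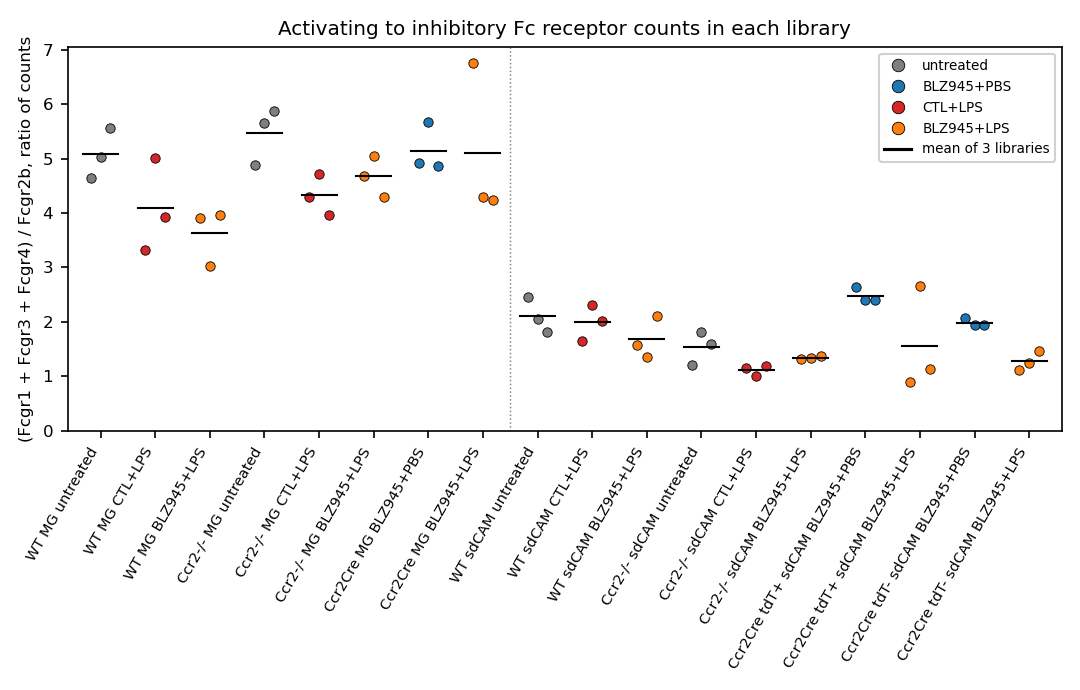
Ratio of the summed counts of Fcgr1, Fcgr3 and Fcgr4 to those of Fcgr2b in each of the 54 libraries, on a linear axis from 0, with 1 point per library and a bar at the mean of 3 libraries. All MG libraries (left) lie at 3.04 or higher and all sdCAM libraries (right) at 2.66 or lower.

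Compared directly, sdCAMs held more Fcgr2b and Fcgrt than MG before LPS. In untreated WT cells Fcgr2b was 2.58-fold (adjusted p = 0.00567) and Fcgrt 4.45-fold higher in sdCAMs (adjusted p = 0.0106), the only 2 of 6 called, against 17.4% of all genes (12% higher). Leaving out 1 library ended the call of Fcgr2b in 1 of 6 fits (adjusted p = 0.0533) and that of Fcgrt in 2 of 6 (adjusted p = 0.0554 and 0.0549). In untreated Ccr2-/- cells Fcgr2b was 3.74-fold (adjusted p = 5.11e-09), Fcgrt 8.41-fold (adjusted p = 6.37e-09) and Fcer1g 1.79-fold higher (adjusted p = 0.000929), 3 of 6 against 22.4% of genes (12.5% higher). Of the activating receptors none was called before LPS. Fcgr3 differed by −0.08 (−0.77 to 0.60) in WT and by 0.01 (−0.30 to 0.32) in Ccr2-/- cells on the log2 scale, Fcgr4 by 1.07 ± 0.52 (adjusted p = 0.161) and 0.27 ± 0.25, and Fcgr1 by 0.82 (0.11 to 1.53, adjusted p = 0.0986) and 0.28 (−0.07 to 0.63, adjusted p = 0.266). Reporter cells after PBS had Fcgr2b 2.55-fold (adjusted p = 0.0119) and Fcgrt 4.41-fold (adjusted p = 0.00559) higher in sdCAMs, 2 of 6 against 8.96% of genes (6% higher). With the mouse as a block, Fcgr2b missed the threshold there (adjusted p = 0.0662).

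After LPS more of the 6 genes were called between the cell types. The share of all genes called was higher as well in WT cells (17.4% untreated, 36.7% after LPS) and in Ccr2-/- cells (22.4% and 27%). In reporter cells it was 8.96% after PBS and 6.26% after LPS. In WT cells 5 of 6 were higher in sdCAMs (36.7% of all genes were called, 19.5% higher): Fcgr1 (log2 1.17), Fcgr2b (2.78-fold), Fcgr4 (4.77-fold, adjusted p = 0.00344), Fcer1g (68.7-fold, 11.7 to 403) and Fcgrt (log2 1.70). In CPM without the TMM scaling, only Fcer1g of these lay apart between the cell types. Unscaled Fcgr2b held 578 to 848 CPM in sdCAMs and 715 to 1018 CPM in MG, and Fcgr1 184 to 343 and 236 to 535 CPM. Unscaled Fcgr4 held 357 to 522 CPM in sdCAMs and 196 to 451 CPM in MG, and Fcgrt 41.4 to 206 and 75.2 to 162 CPM. With the short-transcript share as a covariate only Fcgr2b was called, and the call of Fcgrt was lost in 3 of 6 fits without 1 library, with a log2 difference of 0.54 without the sdCAM library of mouse 4. In Ccr2-/- cells Fcgr2b (3.31-fold, adjusted p = 1.85e-08), Fcgr4 (2.53-fold, adjusted p = 0.000272) and Fcer1g (3.39-fold, adjusted p = 2.05e-07) were higher in sdCAMs and Fcgr3 was lower (0.583-fold, adjusted p = 0.000583), 4 of 6 against 27% of genes (13.8% higher, 13.2% lower). Fcgrt, 8.41-fold apart before LPS, differed by 0.15 (−0.29 to 0.60) on the log2 scale after it. In reporter cells after LPS, Fcgr2b and Fcer1g were higher and Fcgr3 lower in sdCAMs (3 of 6, with 6.26% of genes called, 5.14% higher and 1.11% lower), and all 3 calls were lost with the mouse as a block (adjusted p = 0.109, 0.133 and 0.126) and with the 2 doubtful columns exchanged (adjusted p = 0.0564, 0.104 and 0.0709).

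Whether LPS acted differently on the 2 cell types was tested in an interaction term. In Ccr2-/- cells 3 of 6 genes passed, against 8.14% of all genes (3.5% with a positive and 4.64% with a negative term). Fcgrt fell further in sdCAMs than in MG (log2 −2.92 ± 0.30, adjusted p = 4.56e-06), Fcgr3 rose in MG and not detectably in sdCAMs (−0.79 ± 0.21, adjusted p = 0.0250), and Fcer1g rose further in sdCAMs (0.92 ± 0.23, adjusted p = 0.0178). Fcgr4 gave 1.07 ± 0.34 (adjusted p = 0.0642), and 1.04 (adjusted p = 0.00628) with the mouse as a block. Fcgr2b did not differ detectably (−0.18, −0.58 to 0.22). In WT cells no member passed in edgeR or in DESeq2 (again with no value for Fcer1g), 1 had an unadjusted p under 0.05 (1.32% of genes were called), and Fcer1g gave 4.28 ± 1.44 (adjusted p = 0.133) and Fcgr4 1.19 ± 0.72 (adjusted p = 0.406).

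Cells repopulated after BLZ945 were compared with those of the CTL mice after LPS. No member was called in WT MG, WT sdCAMs, Ccr2-/- MG or Ccr2-/- sdCAMs in edgeR, nor in DESeq2 (which gave no adjusted p for Fcer1g in WT sdCAMs), and unadjusted p under 0.05 occurred for 2 members, both in Ccr2-/- MG. Single libraries decided Fcer1g in both genotypes: in WT sdCAMs it differed by −1.14 (adjusted p = 0.860), and by −4.93 (adjusted p = 0.0251) without the BLZ945+LPS library of mouse 12, and in Ccr2-/- MG by 0.45, and by 0.65 (adjusted p = 0.0370) without the third BLZ945+LPS library. Of all genes, 0.0763%, 0%, 0.0173% and 0% were called in edgeR. Fcgr4 held 269, 274 and 244 CPM in repopulated WT MG, 574, 486 and 814 CPM in WT sdCAMs, 874, 595 and 453 CPM in Ccr2-/- MG and 1901, 1214 and 1105 CPM in Ccr2-/- sdCAMs. Its log2 differences from CTL+LPS were 0.24 (−0.42 to 0.91), −0.79 (−2.25 to 0.67), 0.50 (0.02 to 0.98) and 0.29 (−0.13 to 0.70) in this order. Those of Fcgr2b were 0.08 (−0.25 to 0.42), −0.28 (−1.51 to 0.94), 0.06 (−0.20 to 0.32) and −0.08 (−0.38 to 0.22). The intervals of Fcgr2b in MG and in Ccr2-/- sdCAMs lay within 0.42 of 0, while that in WT sdCAMs reached from −1.51 to 0.94.

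The tdT+ sdCAMs, marked through Ccr2, were compared with the tdT- sdCAMs of the same mice. After PBS no member was called by edgeR or DESeq2 and none had an unadjusted p under 0.05 (0.0236% of genes were called). Fcgr4 was at 52.7 to 90.6 CPM in tdT+ and 30.8 to 58.2 CPM in tdT- cells (log2 difference 0.71, −0.07 to 1.48). These ranges overlapped, but within each mouse tdT+ cells held more, 90.6 against 58.2, 52.7 against 30.8 and 62.7 against 36.6 CPM, with an adjusted p of 1 with the mouse as a block (log2 difference 0.72). After LPS Fcer1g alone differed, as given above, against 10.8% of genes (6.92% lower in tdT+ cells), and Fcgr4 differed by −0.23 (−0.998 to 0.54), Fcgr2b by 0.01 (−0.67 to 0.69) and Fcgrt by 0.67 ± 0.34 (adjusted p = 0.234).

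Untreated Ccr2-/- MG held more RNA of 4 of the 6 genes than untreated WT MG, against 17.5% of all genes (9% higher). The genotypes were deposited in separate count tables. The study's methods name a ComBat-seq correction for them, which was not applied here. A difference in processing cannot be told apart from genotype in these comparisons. The log2 differences were 0.65 ± 0.20 for Fcgr1 (adjusted p = 0.0300), 0.54 ± 0.14 for Fcgr2b (adjusted p = 0.0112), 0.65 ± 0.14 for Fcgr3 (adjusted p = 0.00315) and 0.76 ± 0.16 for Fcer1g (adjusted p = 0.00369). The untreated libraries of the genotypes did not overlap for any of the 4, though the call of Fcgr1 was lost in all 6 fits without 1 library. Fcgrt gave 0.60 ± 0.21 (adjusted p = 0.0518) and Fcgr4 0.59 (adjusted p = 0.232), so that all 6 differences lay between 0.54 and 0.76. Short transcripts, Fcer1g included, took 3.53% to 4.14% of the counts in untreated WT MG and 5.94% to 6.36% in untreated Ccr2-/- MG, and their part in this result was not tested. In untreated sdCAMs only Fcgr2b was called, 2.22-fold higher in Ccr2-/- cells (adjusted p = 0.0235, with 9.6% of genes called, 3.82% higher), and this call was lost in 4 of 6 fits without 1 library. With the IEG_correction mark as a covariate, Fcer1g, Fcgr3 and Fcgrt were called as well, and Fcer1g turned from −0.17 ± 0.93 to 2.35. The LPS response of the genotypes was called different for no member in MG or sdCAMs, with 1 and 2 members at an unadjusted p under 0.05 and no gene called in edgeR. DESeq2 called Fcgrt in sdCAMs (log2 −2.65) and no member in MG.

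The signalling partners of the receptors moved in mixed directions. Of the ITAM kinases and their downstream signalling, 5 of 22 genes tested rose and 4 fell in WT MG, 5 rose and 5 fell in Ccr2-/- MG, 2 of 23 rose and 1 fell in WT sdCAMs, and 10 rose and 3 fell in Ccr2-/- sdCAMs. The median log2 differences were 0.11, 0.18, −0.48 and 0.59, beside 0.02, 0.00, −0.08 and −0.05 over all genes. Of all genes, 30.9%, 34.9%, 6.32% and 28.8% were called in the same order (16.7%, 19.4%, 3.7% and 15.8% as higher). Fgr, a Src-family kinase, rose in all 4, from a mean of 3.73 to 117 CPM in WT MG (31.4-fold, adjusted p = 3.79e-05) and from 0.807 to 275 CPM in Ccr2-/- sdCAMs. Rac2, a GTPase of the phagocyte oxidase, rose 5.11-fold in WT and 3.75-fold in Ccr2-/- sdCAMs. Vav2, a guanine nucleotide exchange factor, fell from 151 to 47.9 CPM in WT MG.

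On the inhibitory side, 3 of 10 genes downstream of ITIM receptors rose and 5 fell in WT MG, 3 rose and 6 fell in Ccr2-/- MG, and 2 rose and 2 fell in Ccr2-/- sdCAMs. In WT sdCAMs all 10 had an adjusted p of 0.0800 (Dok3) or higher, 3 of them with an unadjusted p under 0.05. The median log2 differences of this list were −0.18, −0.54, −0.61 and −0.00. Of all genes, 30.9%, 34.9%, 6.32% and 28.8% were called in WT MG, Ccr2-/- MG, WT sdCAMs and Ccr2-/- sdCAMs. Dok3, an adaptor that restrains immunoreceptor signals, rose 2.30-fold in WT MG, and Inppl1, the gene of the phosphatase SHIP2, fell from 31.9 to 16.1 CPM there. Of the other ITIM receptors, 6 rose and 4 fell of 12 in both WT and Ccr2-/- MG (medians 0.66 and 0.43), 4 rose and 2 fell of 13 in WT sdCAMs (0.21), and 5 rose and 3 fell in Ccr2-/- sdCAMs (0.47). Pirb, an inhibitory receptor for MHC class I, rose from 98.0 to 1696 CPM in WT and from 98.9 to 1481 CPM in Ccr2-/- sdCAMs, while Sirpa, the receptor of CD47, fell from 3610 to 1048 CPM in WT MG and Lair1, a collagen receptor, from 867 to 298 CPM.

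In WT and Ccr2-/- MG 30.9% and 34.9% of all genes were called with LPS, and in WT and Ccr2-/- sdCAMs 6.32% and 28.8%. Other receptors that signal through ITAM adaptors were counted beside these shares. Of 12 tested in MG, 6 rose and 2 fell in both genotypes (median log2 differences 2.26 in WT, or 1.41 with the 5 genes at 0 set to a bound of 3 counts per library, and 1.70 in Ccr2-/- cells), 3 of 10 rose in WT sdCAMs (0.37), and 3 rose and 5 fell of 11 in Ccr2-/- sdCAMs (−0.55). The C-type lectin receptor Clec4e, a partner of Fcer1g, rose from a mean of 1.34 to 2008 CPM in Ccr2-/- sdCAMs. Clec7a, the β-glucan receptor, fell there from 140 to 4.08 CPM and Trem2, a lipid receptor of microglia, from 584 to 85.1 CPM. Trem2 also fell from 1008 to 308 CPM in WT MG.

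The phagocyte oxidase, which makes the oxidative burst, had 2 of 5 genes higher and 1 lower in WT MG, 3 higher and 1 lower in Ccr2-/- MG, 1 higher in WT sdCAMs and 3 higher in Ccr2-/- sdCAMs (median log2 differences 0.26, 0.54, 1.17 and 0.99). Cybb, its catalytic subunit, rose from 9.72 to 177 CPM in WT MG and from 4.58 to 251 CPM in Ccr2-/- MG. For FcRn, the partner B2m rose 1.30-fold in WT MG (adjusted p = 0.0442) and 1.45-fold in Ccr2-/- sdCAMs (adjusted p = 0.00951), where Fcgrt itself fell. Ighm, the other gene of that list that could be tested, encodes the heavy chain of IgM, an antibody that FcRn does not carry, and it fell from 399.8 to 16.8 CPM in Ccr2-/- sdCAMs and from 393 to 38.5 CPM in WT MG. Of 4 other Fc and Fc-like receptors tested, 2 fell in WT MG, 2 in Ccr2-/- MG and 1 in WT sdCAMs, and 1 rose and 1 fell in Ccr2-/- sdCAMs. Fcrl2 fell in all 4, from 4458 to 382 CPM in Ccr2-/- sdCAMs. For these lists too, the shares of all genes called were 30.9% (WT MG), 34.9% (Ccr2-/- MG), 6.32% (WT sdCAMs) and 28.8% (Ccr2-/- sdCAMs).

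Across the 18 group means, each member was set beside the 8628 genes that averaged 10 CPM or more, as a description, since the groups share mice, libraries and treatments. Fcgr4 was most like Nfkbia (Pearson r = 0.982), Ptges (0.9753), Il1rn (0.973), Cebpb (0.970) and Acod1 (0.964). Fcgr2b was most like Marcksl1 (0.964) and Plin2 (0.942), with Vnn3, Nampt and Prnp next (down to 0.936). For Fcgrt they were Chp2 (0.945), Selenbp1 (0.944), Txnip, Aldh7a1 and Smagp (down to 0.928). Fcgr3 stood beside Cnbp (0.914), Rtcb, Cd86, Jagn1 and Arf6 (down to 0.881), and Fcgr1 beside Atp5pb (0.897), Bag1, Rtraf, Arpc2 and Phf23 (down to 0.847). Fcer1g was most like Mrpl54 (0.989), Hsbp1 (0.986), Txn1 (0.984), Taf10 (0.980) and Sf3b6 (0.979), whose longest transcripts have 604, 1208, 1051, 4281 and 1180 bases. Among the members themselves, Fcgr1 and Fcgr2b had the highest r (0.76), Fcgr4 and Fcgr2b had 0.67, Fcgr3 and Fcgr2b 0.02, and Fcgr4 and Fcgrt −0.52.

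In the order of the 18 group means, Fcgr4 spanned a ratio of 111 from untreated WT MG (12.7 CPM) to Ccr2-/- sdCAMs after BLZ945+LPS (1407 CPM), and 13 of the 17 pairs of neighbouring groups overlapped. Fcer1g spanned 92.4 (14 of 17 pairs overlapping), from untreated WT MG to WT sdCAMs after CTL+LPS. Fcgrt spanned 19.4 (15 of 17), from 66.5 CPM in tdT- sdCAMs after LPS to 1289 CPM in untreated Ccr2-/- sdCAMs. Fcgr2b spanned 11.7 (12 of 17), with its lowest mean in untreated WT MG and its highest in Ccr2-/- sdCAMs after CTL+LPS. Fcgr3 spanned 4.04 (16 of 17) and Fcgr1 3.34 (17 of 17), so that Fcgr1 was the gene with the flattest order.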

How the data were processed

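Cells were sorted from brains, and RNA was amplified with the SMARTer kit, made into Nextera XT libraries and sequenced in 50-cycle single reads without molecular identifiers. Per the labels and the study's methods, the authors used bcl2fastq 2.20, aligned with STAR 2.7.11a and counted with featureCounts 2.0.8. The submitters' processing notes also name DESeq2 1.46.0, and they name more than one mouse build, so that the build of the counts is uncertain. The strand setting is not given in the sources used here. The deposited values are raw counts per gene in 3 tables. Transcript lengths and gene positions came from GENCODE (GRCm38).

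Each comparison was fitted to the deposited counts in R 4.3.3 with edgeR 4.0.16 (filterByExpr, TMM, quasi-likelihood test, two-sided, Benjamini-Hochberg over all genes tested, threshold adjusted p under 0.05). The fits joined the groups of 1 genotype and cell type, of the reporter sdCAMs, or of both cell types of 1 genotype. Levels, marker sums included, are TMM-scaled counts per 1000000 (CPM) over all 54 libraries. In WT sdCAMs after CTL+LPS the scaling moved Fcer1g from 29555, 29712 and 27933 CPM to 85963, 82675 and 56551 CPM. The study's methods name a ComBat-seq correction for the WT and Ccr2-/- data, which was not applied here, and whether WT and Ccr2-/- libraries were processed together cannot be told from the labels. Replicates are different mice, and no 2 columns were identical. Totals of 1705930 to 11330781 counts limit precision most in WT sdCAMs. MG and sdCAMs of a genotype came from the same mice by the labels, so that mouse as a block was an alternative. The correlation of deviations from group means within a mouse was 0.0084 to 0.2151 in 9 WT pairs, −0.1061 to 0.309 in 9 Ccr2-/- pairs, 0.0706 to 0.2137 in 6 tdT+ and tdT- pairs, 0.0312 to 0.107 in 6 pairs of MG and tdT+ cells and −0.0448 to 0.1081 in 6 pairs of MG and tdT- cells.

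Alternatives were RLE factors, other filters, DESeq2 1.42.0, a log2 fold limit of 1, leaving out each library, the IEG_correction mark as a covariate or a limit, and the exchange of the 2 doubtful columns. The share of short transcripts as a covariate, and totals from transcripts of 1000 bases or longer without Saa3, were chosen after seeing the data. The members and gene lists were chosen with earlier results of these data known. Named are all 6 members, in each pathway list up to 3 higher and 3 lower genes with the smallest p (adjusted p under 0.05, mean of at least 10 CPM in a group), of which examples are printed, and the 5 genes most like each member over the 18 group means. The fitting code was tested on simulated data. No protein sequences were used here. In Ccr2-/- mice after LPS the titles of some samples name the other cell type than their characteristics do, and the characteristics were used.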

Additional observations from a re-analysis of the deposited data

Results flagged for a closer look

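The difference between sdCAMs and MG in their LPS response was tested for each member, and in Ccr2-/- cells it passed the threshold for 3 of the 6. The interaction was −2.92 on the log2 scale for Fcgrt, −0.79 for Fcgr3 and 0.92 for Fcer1g, from edgeR's quasi-likelihood test on 18 libraries. With the mouse as a block the same 3 members were called, and Fcgr4 with them. Between untreated and CTL+LPS, summed microglial markers went from 3306 to 4994 CPM to 1067 to 1489 CPM in these sdCAMs and from 40111 to 41335 CPM to 13259 to 15331 CPM in the MG, and summed sdCAM markers of the sdCAMs from 13821 to 14211 CPM to 4519 to 4974 CPM, so that the markers of both cell types were lower with LPS, and the part of microglial RNA in the 3 results was not tested.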

How the results depend on the processing

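In sdCAMs the limits are depth (WT), a share of short transcripts that differs between libraries, the IEG_correction mark and 2 doubtful columns. No member that was called changed direction with RLE factors or with totals from long transcripts. Fcer1g reversed with the share of short transcripts as a covariate (chosen after seeing the data): −1.76 for LPS in tdT- sdCAMs, −0.87 with counts summed per mouse, 2.05 for tdT+ against tdT- cells after LPS and 1.28 for Ccr2-/- against WT sdCAMs untreated, where the mark as a covariate gave 2.35. The cause was not tested.

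With that covariate the members called went from 4 to 0 for LPS in tdT- sdCAMs and in summed sdCAMs, from 1 to 0 for tdT+ against tdT- cells after LPS, from 5 to 1 for sdCAMs against MG in WT after LPS, from 3 to 1 in the reporter mice after LPS and from 1 to 4 for genotype in sdCAMs. The mark as a covariate gave 2 for LPS in WT sdCAMs (1 in the main comparison), 2 for sdCAMs against MG in WT after LPS, 1 for the WT interaction of cell type and LPS (0) and 4 for genotype in sdCAMs. LPS in WT sdCAMs also gave 2 with the marked libraries alone, with the compared libraries alone and in DESeq2. Exchanging the 2 columns gave 2 for LPS in tdT- and in summed sdCAMs, 0 for tdT+ against tdT- cells after LPS and 0 for reporter sdCAMs against MG after LPS, and leaving both out gave 2 (summed) and 0 (against MG). Without the tdT+ library of mouse 5, 4 members were called for LPS in tdT+ sdCAMs, in place of 2. DESeq2 gave 3 for genotype in sdCAMs and 1 for its interaction with LPS. Without a filter on low counts these were 2 and 2, and the WT interaction of cell type and LPS was 1. A fold limit of 1 on the log2 scale left 2 of 4 in WT MG, 2 of 5 in Ccr2-/- MG, 1 of 3 in the Ccr2-/- interaction of cell type and LPS and 0 of 4 for genotype in MG. DESeq2 gave no adjusted p for Fcer1g in the 7 comparisons that use WT sdCAMs, which were left out.

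With the mouse as a replicate block, sdCAMs against MG in the reporter mice gave 1 member after PBS (2 without the block) and 0 after LPS (3 without), and Fcgr4 joined the 3 members of the Ccr2-/- interaction. The block changed no other call of a member.

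Leaving out 1 library at a time gave 3 to 6 members for LPS in WT MG, 4 in all fits in Ccr2-/- MG, 1 in WT sdCAMs, 4 to 5 in Ccr2-/- sdCAMs, 0 to 1 in reporter MG, 2 to 4 in tdT+, 3 to 4 in tdT- and 2 to 4 in summed sdCAMs. Repopulation gave 0 in WT MG and Ccr2-/- sdCAMs and 0 to 1 in WT sdCAMs and Ccr2-/- MG. For sdCAMs against MG it gave 0 to 3 (WT untreated), 4 to 5 (WT LPS), 3 (Ccr2-/- untreated), 4 (Ccr2-/- LPS), 1 to 2 (reporter PBS) and 0 to 2 (reporter LPS), and for the interactions 0 (WT) and 2 to 4 (Ccr2-/-). tdT+ against tdT- cells gave 0 after PBS and 1 after LPS. Genotype gave 2 to 3 in MG and 0 to 1 in sdCAMs, and 0 for both of its interactions with LPS.

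Counts of all genes called moved by more than 1.5 times in many of these. For LPS they were 664 in WT sdCAMs (1655 in DESeq2, 1518 without a filter, 1142 with the mark), 118 in reporter MG (855 in DESeq2), 1731 in tdT+ sdCAMs (2611 in DESeq2, 296 with the short-transcript share, 1097 with the exchange), and 3448 in tdT- sdCAMs (0 and 1513 with the last 2). For repopulation they were 9, 0, 2 and 0 in WT MG, WT sdCAMs, Ccr2-/- MG and Ccr2-/- sdCAMs, and 73, 11, 38 and 88 in DESeq2. Reporter sdCAMs and MG differed in 1142 genes after PBS and 798 after LPS (2020 and 1793 in DESeq2, 500 and 292 with the block).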

Other observations

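Other cells that carry Fc receptors were looked for by summed markers. NK and T cell markers, whose NK cells use FcγRIII, reached 178 CPM in tdT- sdCAMs after LPS and 0.77 CPM at most in MG. B cell markers, cells in which FcγRIIB is the main Fc receptor for IgG, reached 48.1 CPM in tdT+ sdCAMs after PBS and 43.7 CPM in untreated Ccr2-/- MG. Mast cell markers reached 56.3 CPM in tdT- sdCAMs after LPS and endothelial markers, of cells known for FcRn, 38.99 CPM in untreated WT sdCAMs. Saa3, an acute-phase gene, took 23.0% to 35.8% of the counts in WT sdCAMs after CTL+LPS, 14.5% to 28.3% in tdT- sdCAMs after LPS and 0.611% at most in MG.

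P2ry12, a microglial receptor, stood at 789.8 CPM in 1 reporter MG library after PBS and at 7861 and 9831 CPM in the other two. The same gene was at 841 CPM in the tdT+ LPS sdCAM library of mouse 5, which had the highest Fcgr3 of its group, and at 98.4 and 104 CPM in the others.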
